A study of Mus musculus with 48 samples.

Results

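APP/PS1 H2O mice were compared with WT H2O mice in the cortex, that is, the effect of the amyloid transgenes in animals that drank water without drug. The comparison took 11 of the 48 arrays of the series, 6 from APP/PS1 H2O and 5 from WT H2O mice. Arrays were chosen by tissue, genotype and agent in the sample labels, and 1 WT H2O cortex array (mouse 310) was left out because the scanner software had not found its spot grid. APP/PS1 mice (APPswe/PS1dE9, heterozygous males according to the series text) carry the pair of amyloid transgenes for which the line is named, and WT mice carry neither. Mice were 9-10 months old when tissue was taken, and treatment is dated from 3 months of age in the sample labels and from 4 months in the series text. Given beside these values, and only there, are the readable cortex arrays of mice that drank the A2AR antagonist prodrug MSX-3 at 0.3 g/L (6 APP/PS1 and 5 WT), and the 12 hippocampus arrays of the same H2O mice, mouse 310 included.

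In this line both transgenes are driven by a prion protein promoter, and amyloid deposits appear first and most densely in the cortex. Microglia, the resident macrophages of the brain, gather at deposits, where Trem2 and its adaptor Tyrobp are needed for them to switch to a phagocytic, lysosome-rich program. Astrocytes nearby become reactive and raise Gfap, and type I interferons induce antiviral genes through the ISGF3 complex, which holds Stat2 and Irf9 and binds GAAA repeats in their promoters. Levels are given as log2 intensity relative to the 75th percentile of the array, so that a level of 0 is that percentile and a difference of 1 is a fold change of 2. Single WT levels follow the order of mice 56, 71, 258, 308 and 318. Levels of different probes cannot be set against each other. RNA came from whole tissue, so that more cells of a type and more RNA per cell cannot be told apart.

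The 9 promoter stretches below come from the interferon response and chemokine genes that rose in APP/PS1 H2O cortex and hold an interferon-stimulated response element-like motif, the letters GAAANNGAAA on either strand, within 250 bases before the RefSeq start. They are shown because the interferon response was among the gene groups that rose. Sequences are read 5′ to 3′ on the strand of the gene, matches are in capitals, also where they lie on the other strand and so read as its complement, and overlapping matches run together.
Cxcl10 (GRCm38.p6 chr5:92349078-92349117, minus strand): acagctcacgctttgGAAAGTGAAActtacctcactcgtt
Oas1a (GRCm38.p6 chr5:120907526-120907560, minus strand): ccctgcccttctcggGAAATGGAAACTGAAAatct
Trim30a (GRCm38.p6 chr7:104465205-104465244, minus strand): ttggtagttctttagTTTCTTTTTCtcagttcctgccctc
Ifit1 (GRCm38.p6 chr19:34640770-34640828, plus strand): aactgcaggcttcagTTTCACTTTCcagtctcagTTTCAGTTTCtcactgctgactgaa
Bst2 (GRCm38.p6 chr8:71537572-71537617, minus strand): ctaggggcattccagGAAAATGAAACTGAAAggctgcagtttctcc
Gbp3 (GRCm38.p6 chr3:142559984-142560029, plus strand): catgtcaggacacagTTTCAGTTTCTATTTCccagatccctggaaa
Isg15 (GRCm38.p6 chr4:156200860-156200911, minus strand): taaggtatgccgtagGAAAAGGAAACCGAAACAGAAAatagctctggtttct
Rsad2 (GRCm38.p6 chr12:26456548-26456587, minus strand): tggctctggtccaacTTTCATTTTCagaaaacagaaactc
Ifit3 (GRCm38.p6 chr19:34583358-34583431, plus strand): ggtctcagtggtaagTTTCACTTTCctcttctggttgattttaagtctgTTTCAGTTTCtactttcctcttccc

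A promoter was found for 15 of the 21 interferon response genes that rose, and 8 of these 15 genes had the motif in at least 1 promoter. Of the 7 interferon response genes with a promoter that were not called, 2 had it (Gbp2 and Stat2). Among genes with a promoter, it was found for 2 of 11 chemokine and receptor genes (Cxcl10 and Cxcl14), 1 of 12 antigen presentation genes (B2m) and 1 of 19 plaque-associated microglia genes (Spp1). Among all 32851 RefSeq promoters of this table, 978 held the motif (2.98%). This last share counts single promoters and the others count genes, which can have more than 1 promoter, so they are not in the same unit. A match is a description of letters and not evidence of binding.

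Of 37680 probes tested, 508 were higher and 53 lower in APP/PS1 H2O cortex (limma, Benjamini-Hochberg adjusted p under 0.05, with a change of 1.5-fold or more). These were 1.35% and 0.141% of the probes. With 1 probe per gene, 358 of 16577 genes were higher (2.16%) and 25 lower (0.151%). Rises were larger than falls, with 62 higher probes past a 4-fold change and 15 past an 8-fold change against 1 and 0 lower ones. A total of 31 gene lists with 414 genes was used to describe what moved. Of the 372 list genes that could be tested, 119 rose and none fell (0 of 372), and 239 genes outside the lists rose as well. With only 0.151% of all genes lower, the absence of falls among 372 says little about the lists.

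All 561 called probes kept their direction within each of the 2 scan days, on which 5 APP/PS1 and 2 WT arrays, and then 1 APP/PS1 and 3 WT arrays, were scanned. They were called on these same arrays. For 481 of the 508 higher and 39 of the 53 lower probes the groups did not overlap, which fixes the direction within each day. The kept direction is thus no test of a scan day effect. With scan day as a block, 452 of the 508 higher and 20 of the 53 lower probes were still called. With slide as a block fewer of both were still called, and only 1 of the 6 slides held both groups. On it were APP/PS1 mice 259 and 325 and WT mouse 258. Calls kept or lost with this block, here and below, thus rest on 1 WT array. With all 4 cortex groups in the fit and slide as a block, 371 of the 508 higher and 13 of the 53 lower probes were still called. When the arrays were left out singly, 482 to 618 probes were called in all. The higher calls ran from 449 to 528, and the lower calls from 30 to 106. Only without APP/PS1 mouse 261 or 323 or WT mouse 308 did the number of lower calls stay within 1.5 times of 53, and it was 106 without WT mouse 258 and 87 without APP/PS1 mouse 255. Arrays had 59.42 to 74.66% of their probes well above background and correlated with the other cortex arrays at a median r of 0.9751 to 0.9872.

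The genotype labels were checked with Prnp, whose sequences flank the transgenes in their vector. Its levels in WT cortex were 5.28, 5.34, 5.37, 5.14 and 5.29, and the APP/PS1 arrays lay between 7.09 and 7.45 with a median of 7.33. Every APP/PS1 array stood above every WT array, and the difference was 2.03 ± 0.08 (SE; limma adjusted p = 2.07e-07). A second Prnp probe differed by -0.04, so that the rise belonged to 1 of 2 probes. The App probe gave 5.64 to 6.09 in WT and 5.54 to 5.99 in APP/PS1 cortex and a difference of -0.04 ± 0.10. It did not pass the test (adjusted p = 0.904).

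Plaque-associated microglia genes made the largest rises. Of 24 tested members 18 rose, all 24 differences were positive, and their median difference was 1.34 against -0.02 over all genes tested. In 21 of them every APP/PS1 array stood above every WT array, which was the case for 3.25% of all genes with a full set of values. Scan day as a block left 17 of the 18 calls, losing Spp1, and slide as a block 13.

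Trem2, the lipid-sensing receptor of microglia, had levels of 1.68, 1.71, 1.48, 1.54 and 1.52 in WT cortex. In APP/PS1 cortex it ran from 3.50 to 4.07 with a median of 3.91, a 4.90-fold rise (adjusted p = 7.3e-07). Tyrobp, the adaptor through which Trem2 signals, stood at 1.475, 1.504, 1.142, 1.263 and 1.603 in WT and between 3.26 and 3.94, median 3.72, in APP/PS1 cortex. Both genes of the pair thus separated the groups with no overlap, and Tyrobp also rose 4.90-fold (adjusted p = 2.64e-06). The 2 differences, 2.29 ± 0.11 and 2.29 ± 0.13, were the same to 2 decimals.

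Cst7, a cathepsin inhibitor found in microglia at plaques, changed most. Its WT levels were -5.43, -4.35, -4.12, -4.69 and -5.24, and 4 of these 5 arrays measured it well above background. APP/PS1 levels lay between 1.46 and 2.35 with a median of 2.14, and the difference was 6.83 ± 0.24 (114-fold; adjusted p = 7.48e-08). The lowest APP/PS1 value came from mouse 261. Itgax, the integrin CD11c, had WT levels of -6.65, -5.74, -6.12, -5.92 and -6.40, of which 1 was well above background. It reached -0.87 to 0.03, median -0.49, in APP/PS1 cortex, a 53.8-fold rise (adjusted p = 6.76e-08). The groups were several log2 units apart for both genes. With normexp background correction, another way of treating values near background, the differences were 5.06 for Cst7 and 3.04 for Itgax, both still called.

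Other members rose less. Lilrb4a, an inhibitory receptor, rose by 3.91 ± 0.15 (1.78 with normexp). The chemokine Ccl6 rose 12.6-fold, the lysozyme gene Lyz2 5.73-fold, Cd52 5.63-fold and the lysosomal glycoprotein gene Cd68 4.41-fold. Lyz2 has a near-identical neighbour, Lyz1, with which its probe may share signal. Gpnmb rose by 1.66 ± 0.15, the growth factor Igf1 by 1.43 ± 0.10, Spp1 (osteopontin) by 0.98 ± 0.18 and the lipase Lpl by 0.80 ± 0.10. Apoe, the main lipid carrier of the brain and a gene that these microglia are known to raise, did not pass the test, with a difference of 0.28 ± 0.10 (adjusted p = 0.307). The other members not called were Axl (0.44), Ctsb (0.33), Fth1 (0.28), Ank (0.12) and Timp2 (0.03). A second, dimmer probe of Timp2 was called higher, at 1.06 (adjusted p = 0.00037).

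Genes of homeostatic microglia were not lower. Of 16 members 8 rose, and the median difference was 0.58. None was called lower (0 of 16), where 0.151% of all genes were. Fcrls rose by 1.13, Aif1 (which encodes Iba1) by 1.07 and Gpr34 by 1.03. The fractalkine receptor gene Cx3cr1 had levels of 2.45, 2.55, 2.41, 2.48 and 2.44 in WT and 3.25 to 3.57, median 3.31, in APP/PS1 cortex. The groups did not overlap, and the rise was 1.85-fold (adjusted p = 5.69e-05). Csf1r, the receptor on which microglia depend, rose 1.84-fold, although a second probe of it, at 0.45, was not called.

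The purinergic receptor P2ry12, which senses ATP in resting microglia, went from -0.65, -0.71, -0.27, -0.45 and -0.78 in WT to between -0.33 and 0.06, median -0.11. These ranges overlap, and the difference of 0.45 ± 0.12 missed the threshold (adjusted p = 0.0983). Tmem119 differed by 0.42, and P2ry13 and Slc2a5 passed the adjusted p but not the fold change. Olfml3, at -0.52, was the only member with a negative difference. Calls fell from 8 to 7 with scan day and to 2 with slide as a block.

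**Figure D1:**
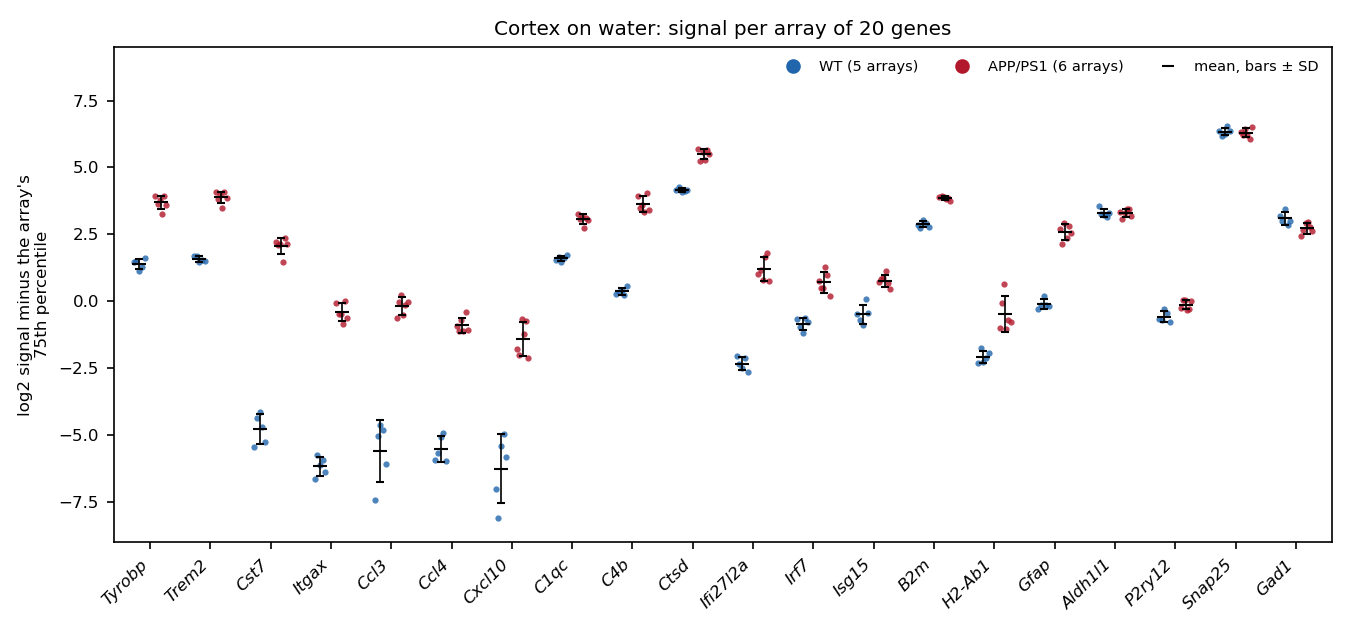
Level of 20 genes on each of the 11 arrays (y axis, log2 signal minus the array's 75th percentile), with WT H2O in blue and APP/PS1 H2O in red, and with the mean and SD of each group in black. Cst7, Itgax, Ccl3, Ccl4 and Cxcl10 lie several log2 units apart between the groups, whereas P2ry12, Aldh1l1, Snap25 and Gad1 overlap.

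Receptors for uptake rose with these genes. Of 16 phagocytic and Fc receptor genes 11 rose, with a median difference of 0.95. Fcer1g, the signalling chain shared by Fc receptors, stood at 0.57, 0.66, 0.49, 0.65 and 0.78 in WT and at 2.01 to 2.36, median 2.19, in APP/PS1 cortex. It rose 2.93-fold with no overlap (adjusted p = 1.58e-06). The IgG receptor genes Fcgr2b, Fcgr1, Fcgr4 and Fcgr3 rose by 1.65, 1.57, 1.25 and 1.21, so that activating and inhibitory receptors were both higher. Plcg2 (1.08), Inpp5d (0.83) and the sialic acid receptor gene Cd33 (0.68) rose as well. Inpp5d was not called with either scan day or slide as a block. With slide as a block 6 genes of the list were called, among them Clec4a2, which was not called without it, and with normexp background correction the rise of Fcgr2b was 1.03. Mertk, a receptor for apoptotic cells, differed by -0.09 and its relative Axl by 0.44, and neither passed the test.

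The lysosome followed with 12 of 25 members higher and a median difference of 0.58. Cathepsin D (Ctsd), the main aspartic protease of the lysosome, was at 4.17, 4.26, 4.07, 4.12 and 4.14 in WT and at 5.26 to 5.69, median 5.54, in APP/PS1 cortex. The APP/PS1 values lay a full log2 unit above, and the rise was 2.53-fold (adjusted p = 1.38e-05). Cathepsin S (Ctss) rose 2.77-fold, and Laptm5, Ctsz, Gusb and Ctsh by 1.34, 1.22, 1.21 and 1.16. Ctsa, Npc2 and Ctsl passed the adjusted p with less than a 1.5-fold change. Cathepsin B (Ctsb) at 0.33 and the membrane genes Lamp2 and Lamp1 at 0.21 and 0.19 were not called. The rise was thus uneven within the organelle's genes, and with slide as a block 6 of the 12 calls remained.

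The NADPH oxidase, which makes the oxidative burst of phagocytes, rose in the subunits Cyba (1.55), Ncf4 (1.18) and Ncf1 (0.99) and in its regulator Rac2 (1.11). Heme oxygenase (Hmox1) rose by 0.76. The stress and antioxidant genes on the same list did not pass the test, with differences of -0.14 for Xbp1, -0.07 for Ddit3 and Hspa5, 0.04 for Nqo1 and Gpx1 and 0.32 for Hspb1. In all, 6 of these 14 genes rose, with a median difference of 0.24.

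Complement genes did not move as 1 block. Of 18 tested members 7 rose, and the median difference was 0.41. The 3 chains of C1q, which starts the classical pathway, rose by 1.40 (C1qa), 1.24 (C1qb) and 1.46 (C1qc). C1qc had WT levels of 1.55, 1.64, 1.48, 1.62 and 1.72 and APP/PS1 levels of 2.73 to 3.24, median 3.09, so that the groups did not overlap (adjusted p = 6.65e-06). C4b was at 0.28, 0.33, 0.42, 0.25 and 0.56 in WT and at 3.32 to 4.03, median 3.55, in APP/PS1 cortex. It rose 9.62-fold (adjusted p = 2.07e-07), and since C4a is a near-identical copy the probe may read both. The proteases that C1q activates, C1ra (-0.26) and C1s1 (-0.35), were not called. Complement C3, the central component, differed by 0.47 ± 0.21 and was not called on its brighter probe, whereas a dimmer probe was, at 0.95. C3ar1 and Itgb2, a receptor for a C3 fragment and a subunit of another, rose by 1.06 and 1.13. The regulators Cd55 and Cd46 differed by -0.08 and 0.12. Calls fell from 7 to 3 with slide as a block, to C1qa, C1qc and C4b.

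Of 25 chemokine and receptor genes 17 were bright enough to be tested. Of these 11 rose, the receptor genes Cx3cr1 and Ccrl2 (0.79) among them, with a median difference of 1.16. Ccl3 and Ccl4, which draw in monocytes and T cells, were measured well above background on 3 of 5 WT arrays each. Ccl3 was at -7.41, -5.04, -4.63, -4.81 and -6.09 in WT and at -0.64 to 0.24, median -0.10, in APP/PS1 cortex. Its WT levels spread widely, and the rise was 42.4-fold (5.41 ± 0.44; adjusted p = 3.04e-05). For Ccl4 the WT levels were -5.94, -5.67, -5.06, -4.92 and -5.99, and APP/PS1 levels were -1.12 to -0.40 with a median of -1.003. This was a 24.6-fold rise (adjusted p = 7.03e-07).

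Cxcl10, an interferon-induced ligand of Cxcr3 with the motif shown above, had levels of -7.00, -8.09, -5.40, -4.95 and -5.82 in WT, 2 of them well above background. APP/PS1 levels lay between -2.10 and -0.67 with a median of -1.49. The rise was 28.5-fold with the widest error among these ligands (4.83 ± 0.53; adjusted p = 0.000272), and with slide as a block it was not called (adjusted p = 0.0813). Cxcl5, Ccl12, Ccl5, Cxcl16 and Ccl9 rose by 2.23, 1.84, 1.46, 1.24 and 1.16. The receptor gene Cxcr3 (0.62) was not called. The neuronal ligand Cx3cl1 differed by -0.07 and the constitutive chemokines Cxcl12 and Cxcl14 by 0.06 and 0.04. With slide as a block 4 of the 11 calls remained. With normexp the rises were 3.17 (Ccl3), 2.57 (Ccl4), 2.27 (Cxcl10) and 0.82 (Ccl5).

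Cytokine genes rose in part. Of 15 tested members 3 rose (20%, against 2.16% of all genes), namely Igf1 (1.43), Tgfb1 (0.98) and Csf1 (0.63), and the median difference was 0.33. For Csf1, a ligand of Csf1r, the brightest probe gave 0.63 and the other 2 gave 2.57 and 2.76. The classical inflammatory cytokines Tnf (0.36) and Il1b (0.20) did not pass the test, nor did the inflammatory enzymes Nos2 (0.38) and Ptgs2 (0.16). Of the Toll-like receptors and their partners, Tlr2 rose 4.63-fold from -4.14, -3.81, -3.26, -3.64 and -3.93 to between -1.67 and -1.41, median -1.57 (adjusted p = 4.02e-06). Its partners Cd14, Tlr1 and Tlr6 rose by 1.78, 1.66 and 1.31. Tlr3, Tlr9 and the adaptor Myd88 differed by 0.12, 0.16 and -0.08 and were not called. Thus 6 of 18 pattern recognition genes rose, with a median difference of 0.16. Tlr2 and Cd14 of these and Igf1 of the cytokines remained called with slide as a block. With normexp the rises of Tlr2 and Tlr1 were 1.33 and 0.66, and Tgfb1 was not called (0.52).

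**Figure D2:**
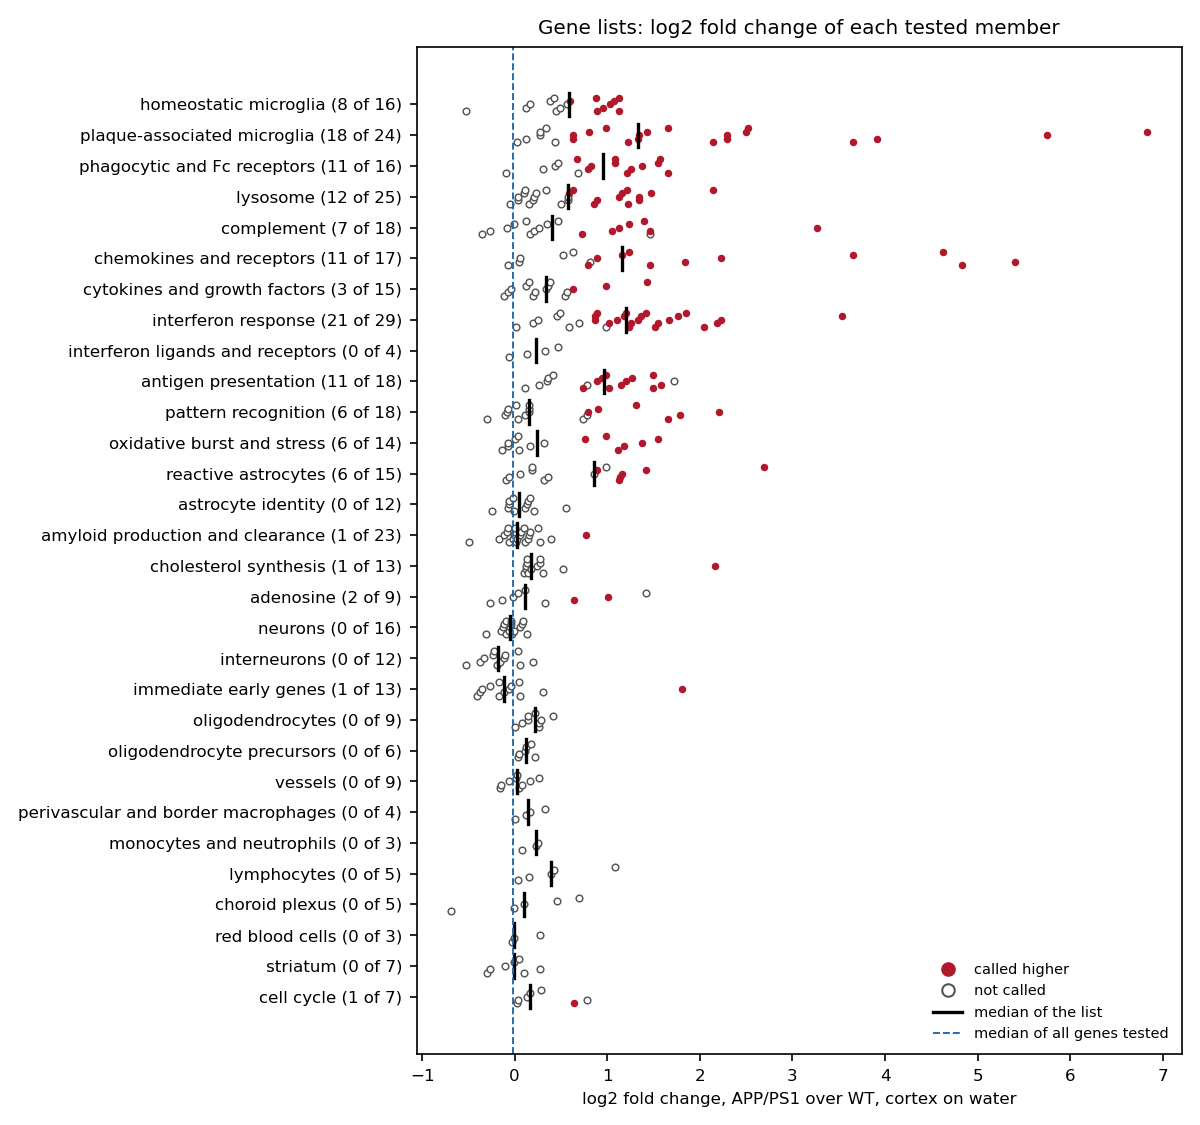
Log2 fold change of APP/PS1 H2O over WT H2O (x axis) of every tested member of 30 gene lists (y axis, with the number of members called higher and of members tested). Filled points were called higher, open points were not called, black bars are list medians, and the dashed line is the median of all genes tested; the lists of microglia, interferon response and chemokines reach far to the right of it, and those of neurons, oligodendrocytes and vessels lie around it.

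Of 29 interferon response genes 21 rose, all 29 differences were positive, and the median difference was 1.21. The members ranged from 0.01 (Ifit2) to 3.54 (Ifi27l2a). Ifi27l2a was at -2.05, -2.36, -2.50, -2.14 and -2.63 in WT and at 0.76 to 1.81, median 1.09, in APP/PS1 cortex, an 11.6-fold rise (adjusted p = 2.15e-06). Among the oligoadenylate synthetase genes, which encode sensors of double-stranded RNA and share sequence, Oasl2 rose by 2.23 and Oas1a by 2.18. The restriction factor Bst2 rose by 1.52 and the deubiquitinating enzyme Usp18 by 1.85.

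Irf7, the transcription factor that amplifies the interferon response, had WT levels of -0.67, -0.98, -1.20, -0.64 and -0.76. APP/PS1 levels were 0.19 to 1.27 with a median of 0.63, a 2.93-fold rise without overlap (adjusted p = 0.000568). A dimmer Irf7 probe, at 1.12, was not called (adjusted p = 0.111). Isg15, a ubiquitin-like modifier, was at -0.48, -0.69, -0.90, 0.08 and -0.45 in WT and at 0.44 to 1.12, median 0.76, in APP/PS1 cortex. It rose by 1.26 ± 0.17 (adjusted p = 0.00135). The 3 tested Ifit genes differed widely, Ifit1 by 1.67 and Ifit3 by 1.11, both higher, and Ifit2 by 0.01. The rise of Ifit1 was 0.94 with normexp. Of the ISGF3 subunits Irf9 rose (0.86), while Stat2 (0.25) was not called.

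None of the interferon receptor genes was called (0 of 4, with Ifngr1 at 0.47, Ifnar2 at 0.33, Ifnar1 at 0.14 and Ifngr2 at -0.06), and Ifngr1 alone passed the adjusted p. With 2.16% of all genes higher, the absence of calls among 4 genes says little. The ligand genes Ifnb1, Ifna4 and Ifng were too dim to be tested. All 21 interferon calls held with scan day as a block, and 8 held with slide as a block.

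Antigen presentation genes rose for both classes of MHC molecules. Of 18 members 11 rose, all 18 differences were positive, and the median difference was 0.97. B2m, the common light chain of class I, was at 2.85, 2.75, 3.04, 2.92 and 2.79 in WT and at 3.73 to 3.95, median 3.88, in APP/PS1 cortex (adjusted p = 1.86e-05). With a 1.98-fold rise its groups did not overlap. The class I heavy chain genes H2-K1 and H2-D1, which share sequence, rose by 1.02 and 0.73, the immunoproteasome subunits Psmb8 and Psmb9 by 1.27 and 0.95 and the class I transactivator Nlrc5 by 1.499 (0.67 with normexp).

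The class II gene H2-Ab1 went from -2.29, -1.76, -2.25, -2.12 and -1.92 to between -1.05 and 0.66, median -0.74, a rise of 1.58 ± 0.28 (adjusted p = 0.0119). Mouse 259 had its highest value and mice 81 and 261 its lowest. The spread between APP/PS1 mice was wider than for B2m. Cd74, the invariant chain of class II, rose by 1.49 and was not called without WT mouse 56 (adjusted p = 0.0527). H2-Aa had a difference of 1.73 ± 0.49 and was not called (adjusted p = 0.15), and Ciita, the class II transactivator, differed by 0.11. With slide as a block 3 of the 11 calls remained.

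Reactive astrocyte genes rose in part. Of 15 tested members 6 rose, with a median difference of 0.85. Gfap, the intermediate filament of reactive astrocytes, was at -0.29, -0.14, 0.20, -0.14 and -0.19 in WT and at 2.15 to 2.92, median 2.63, in APP/PS1 cortex. It rose 6.48-fold with no overlap (adjusted p = 1.25e-06). The oncostatin M receptor Osmr rose by 1.42, the hyaluronan receptor Cd44 by 1.16, the protease inhibitor Serpina3n by 1.14, Aspg by 1.13 and vimentin (Vim) by 0.89. Lcn2, a marker of astrocytes after endotoxin, differed by 0.06 and was not called. Gbp2, at 0.99, was not called either (adjusted p = 0.157), and it also stands on the interferon list. Of the 6 calls, that of Gfap alone remained with slide as a block, and with normexp Cd44 was not called (0.45).

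Astrocyte identity genes were not called (0 of 12), with a median difference of 0.05, although all 12 were well above background on all 11 arrays. With 2.16% of all genes higher and 0.151% lower, the absence of calls among 12 genes says little. Aldh1l1 differed by -0.01, the glutamate transporter genes Slc1a2 and Slc1a3 by -0.06 and 0.13, and the water channel Aqp4 by 0.55 (adjusted p = 0.089). Aqp4 was called without APP/PS1 mouse 261 (0.64; adjusted p = 0.0217).

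None of 16 neuronal markers was called, where 2.16% of all genes were higher and 0.151% lower, and their median difference was -0.05. At these shares the absence of calls among 16 genes says little. Snap25, a synaptic fusion protein, differed by -0.04 ± 0.10 and Rbfox3 (NeuN) by -0.03 ± 0.09. The synaptic and receptor genes Dlg4 (0.09), Ppp1r9b (0.08), Gria1 (0.03), Gria2 (-0.21) and Grin2b (-0.05) were not called. No interneuron marker was called (0 of 12, which says as little), with 9 negative differences and a median of -0.18. Gad1, which encodes a GABA-synthesizing enzyme, was at 3.198, 2.998, 3.434, 2.855 and 2.984 in WT and at 2.42 to 2.95, median 2.71, in APP/PS1 cortex. These ranges overlap (-0.37 ± 0.13; adjusted p = 0.263). Somatostatin (Sst) was at 6.07, 6.03, 6.01, 5.93 and 6.10 in WT and at 5.61 to 5.92, median 5.82, in APP/PS1 cortex, with a difference of -0.24 ± 0.08 (adjusted p = 0.239). For 5 of the 12 interneuron markers the unadjusted p was under 0.05, against 0 of the 16 neuronal markers and 2236 of all 16577 genes.

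Markers of oligodendrocytes (0 of 9 called, median difference 0.22), their precursors (0 of 6, 0.12), vessels (0 of 9, 0.02), perivascular macrophages (0 of 4, 0.14) and choroid plexus (0 of 5, 0.10) did not pass the test. Over all genes 2.16% were higher and 0.151% lower, so the absence of calls in such short lists says little. For blood-derived cells few markers could be tested. None of 3 markers of monocytes and neutrophils and none of 5 of lymphocytes was called, while Ccr2, Cd3g, Cd8a, Ms4a1 and Gzmb were too dim to be tested. The natural killer and T cell gene Nkg7 had a difference of 1.08 ± 0.35 (adjusted p = 0.222). Of 7 tested cell cycle genes Mcm3 rose (0.64), though not with slide as a block, and Mki67, at 0.78, missed the threshold (adjusted p = 0.0698).

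Genes that make or clear amyloid changed little. Of 23 members 1 rose, the plasminogen activator gene Plau (0.77), which was not called with scan day or slide as a block, with normexp (0.51) or without WT mouse 56, 71 or 318. The secretase genes Bace1 (-0.08), Psen2 (-0.07), Adam10 (0.07), Ncstn (0.01) and Aph1a (0.01) and the degrading enzymes Ide (0.00) and Mme (-0.49) were not called. In the cholesterol list 1 of 13 rose. This was Ch25h, whose product 25-hydroxycholesterol is made by activated macrophages and which makes no cholesterol itself. It went from -3.74, -3.61, -4.32, -3.60 and -2.89 to between -1.81 and -1.11, median -1.47 (4.48-fold; adjusted p = 0.000162), and its rise was 1.43 with normexp. Sqle, an enzyme of the synthesis, was not called (0.31). Among 13 immediate early genes Atf3, a stress-induced factor, rose by 1.81 (0.66 with normexp, and not called with slide as a block), whereas Fos (-0.17), Arc (-0.36) and Egr1 (-0.06) were not called.

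Of 9 adenosine genes 2 rose. Adora3, the A3 receptor, was at -2.61, -2.64, -2.42, -2.67 and -2.34 in WT and at -1.71 to -1.27, median -1.57, in APP/PS1 cortex. It rose by 1.003 ± 0.10 without overlap (adjusted p = 0.000154). Entpd1 (CD39), which breaks down extracellular ATP, rose by 0.64 and lost the call without any of APP/PS1 mice 81, 255, 261 and 323 or WT mice 56, 258 and 308. With slide as a block neither Adora3 (0.79; adjusted p = 0.0776) nor Entpd1 was called. Adora2a, the receptor that MSX-3 targets, differed by -0.27 ± 0.27 (adjusted p = 0.713), and Adora1 by -0.13. Adk, the adenosine kinase gene, differed by 1.42 ± 1.13, with WT mouse 258 at -7.64 and the other 4 WT arrays between -1.14 and -0.29. It was not called (adjusted p = 0.646), except with slide as a block. In that fit mouse 258 is the only WT array that shares a slide with APP/PS1 arrays.

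The 25 genes that fell included none of the list genes (0 of 25). Only 372 of the 16577 tested genes stood on the lists, so this says little about them. The detoxification gene Gsta2 was at -4.72, -5.75, -4.65, -4.88 and -5.55 in WT and between -7.62 and -6.66, median -7.02, in APP/PS1 cortex, where no array measured it well above background. The fit gave -2.01 (adjusted p = 0.00095), and the measured bound is a fall of at least 1.08-fold. Cd6, a lymphocyte receptor gene, went from 1.39, 1.18, 0.59, 1.05 and 0.55 to between -0.50 and 0.02, median -0.32, a 2.36-fold fall without overlap (adjusted p = 0.00125). Gm765 fell by 1.11 on the log2 scale, the endopeptidase gene Mmel1 by 1.02 and the kinase gene Nek11 by 0.84. With normexp 12 of the 53 lower probes were still called, the difference of Gm765 was -0.59, and Gsta2 (-0.37) and Nek11 (-0.24) were not called.

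Mmel1 was not called without WT mouse 56 (adjusted p = 0.0543). Col6a4 (-1.13), Myh2 (-0.81) and Rpe65 (-0.81) each lost the call without any of at least 5 single arrays and with scan day as a block. 6330549D23Rik (-1.01) was not well above background on any APP/PS1 array, which leaves a fall of at least 1.01-fold. By contrast, the called probes that rose included 438 of 508 that were well above background on all 5 WT arrays.

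APP/PS1 H2O mice did not rank alike in every gene group. For each mouse, the median over the members of a list was taken relative to the WT mean. Mouse 261 had the lowest of the 6 medians for plaque-associated microglia (1.11 against 1.24 to 1.56 in the other 5), homeostatic microglia (0.40), complement (0.26) and reactive astrocytes (0.33). The same mouse had the highest median for the interferon response, 1.497. Mouse 325 had the lowest, 0.82, and the other 4 mice lay between 1.09 and 1.25. These are values of single mice, and no test was made between them. All 6 medians of these lists lay above those of the 5 WT mice.

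**Figure D3:**
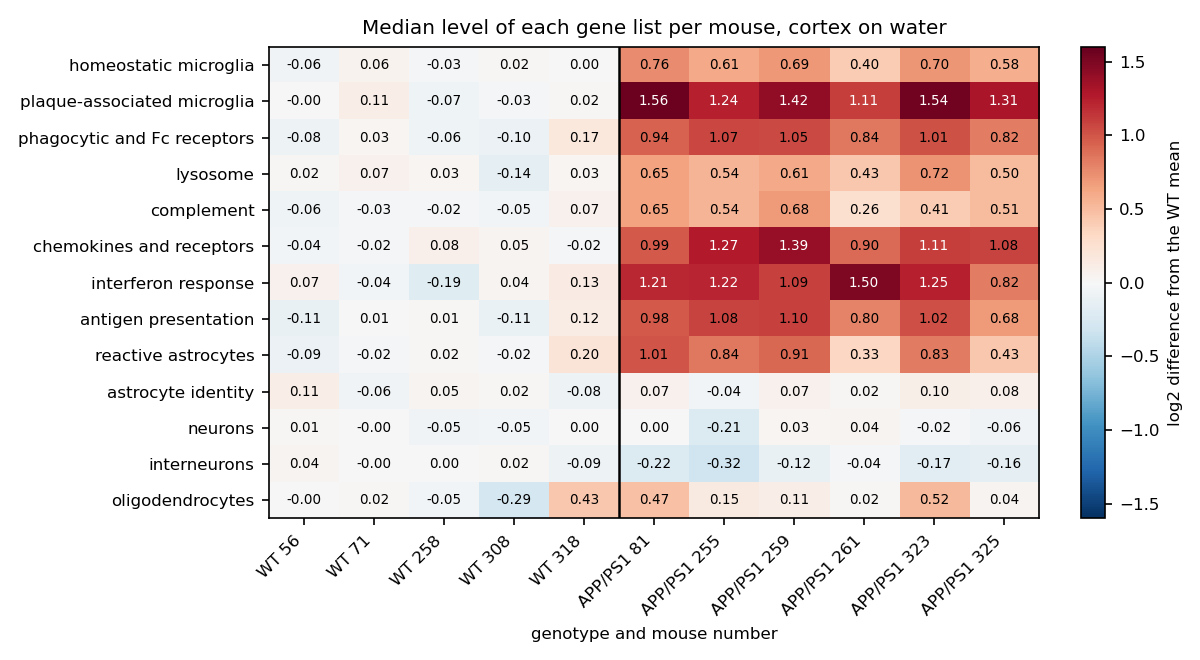
Median log2 difference from the WT mean over the members of 13 gene lists (rows) in each of the 11 mice (columns, WT H2O left of the line and APP/PS1 H2O right of it), from blue (lower) to red (higher). Mouse 261 is palest for reactive astrocytes (0.33) and darkest for the interferon response (1.497) among the APP/PS1 mice, and astrocyte identity and neurons stay near 0.

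The same contrast in MSX-3 mice used other animals and no shared array. There, 485 probes were higher (1.29%) and 49 lower (0.13%), and 341 genes were higher (2.06%). All 508 probes that were higher on H2O had the same direction on MSX-3, and 385 were also called, which is 75.79% of the H2O calls and 79.38% of the MSX-3 calls. Of the 53 lower probes 49 had the same direction and 5 were called. No probe passed the test of the difference between the 2 genotype effects (0 of 37680, or 0%; limma, smallest adjusted p = 0.753), and 1756 probes had an unadjusted p under 0.05.

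List medians on MSX-3 were 1.45 for plaque-associated microglia (1.34 on H2O), 1.09 for chemokines (1.16) and 0.89 for antigen presentation (0.97). For the interferon response the median was 0.76 against 1.21 on H2O, and 15 of 29 genes were called against 21. Ifit1 had a difference of 0.70 and Isg15 of 0.76 on MSX-3, and neither was called there. Irf7 rose by 0.92. Since none of these genes passed the test of the difference, an unequal effect on H2O and MSX-3 is not shown. The plot of both contrasts has the interferon genes mostly under the diagonal.

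**Figure D4:**
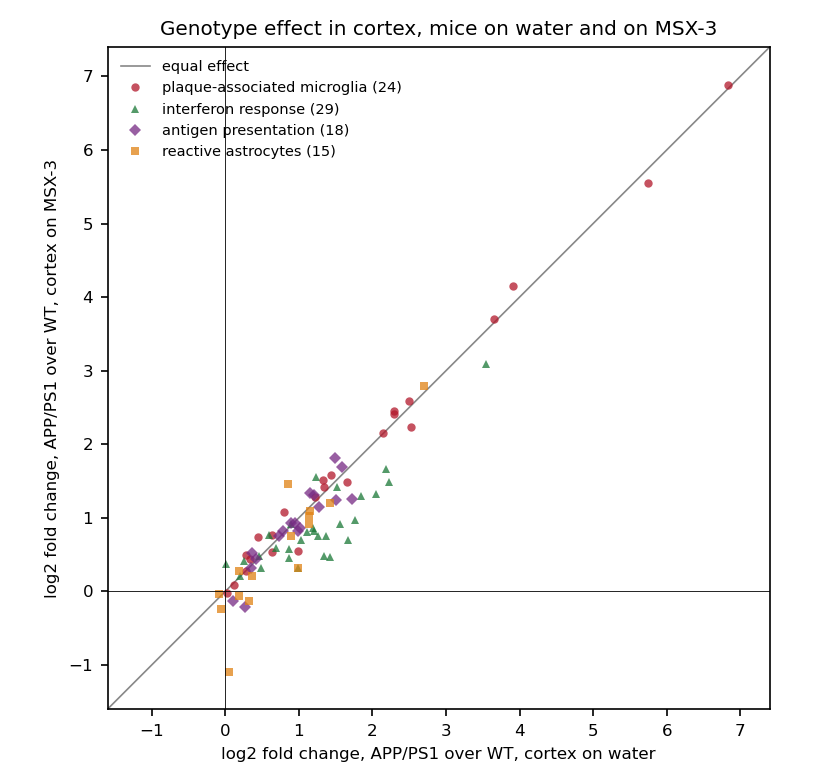
Log2 fold change of APP/PS1 over WT cortex on H2O (x axis) and on MSX-3 (y axis) for the members of 4 lists, with the diagonal of equal effect. Plaque-associated microglia genes lie along the diagonal up to Cst7 (6.83 and 6.89), and most interferon response genes lie under it.

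In the hippocampus of the same H2O mice the genotype effect was smaller. There 99 genes were higher (0.597%), 492 of the 508 higher cortex probes had the same direction, and 125 were called. The median difference of the 508 probes was 0.53 in the hippocampus and 1.096 in the cortex, where they had been selected. The test of the difference between tissues called 61 genes with a higher effect in the cortex (0.368%) and 4 with a lower one (0.0241%). Over probes it called 90, and with the mouse as a replicate block 46 were called, 40 of them from the 84 with a higher effect in the cortex and 1 from the 6 with a lower one. The mouse numbers in the titles pair 11 mice over both tissues.

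C4b and Gfap had large differences between tissues. C4b had a cortical rise of 3.27 and a hippocampal one of 1.02 (difference 2.24 ± 0.16; adjusted p = 1.06e-07, and 0.00023 with the mouse as a block). Gfap rose by 2.70 in the cortex and had a difference of 0.70, not called, in the hippocampus (adjusted p of the difference = 2.33e-05, and 0.000663 with the block). Serpina3n had effects of 1.14 and 0.04, a difference that passed without the block (adjusted p = 0.032) but not with it (adjusted p = 0.28). Itgax rose by 5.75 and 3.36, Trem2 by 2.29 and 1.26, and Cd68 by 2.14 and 1.21, and these differences passed with the block too. For Cst7 (6.83 and 4.57), Tyrobp (2.29 and 1.22) and C1qc (1.46 and 0.77) the block ended the call, with adjusted p of 0.0741, 0.105 and 0.0802.

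Of the plaque-associated list 11 of 24 genes differed between tissues, of the phagocytic receptors 4 of 16, of the lysosome 4 of 25 and of the interferon response 1 of 29, which was Ifi27l2a. With the mouse as a block these were 4, 2, 2 and 0. The median difference in the hippocampus was 0.76 for the interferon response, with 8 genes called, and 0.59 for the plaque-associated genes, with 11 called. No antigen presentation gene differed between tissues by this test (0 of 18). This count says little, since 0.368% of all genes had a higher effect in the cortex. Cxcl10 had effects of 4.83 (cortex) and 2.51 (hippocampus), and this difference of 2.32 ± 0.64 did not pass (adjusted p = 0.259), which does not show equal effects.

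**Figure D5:**
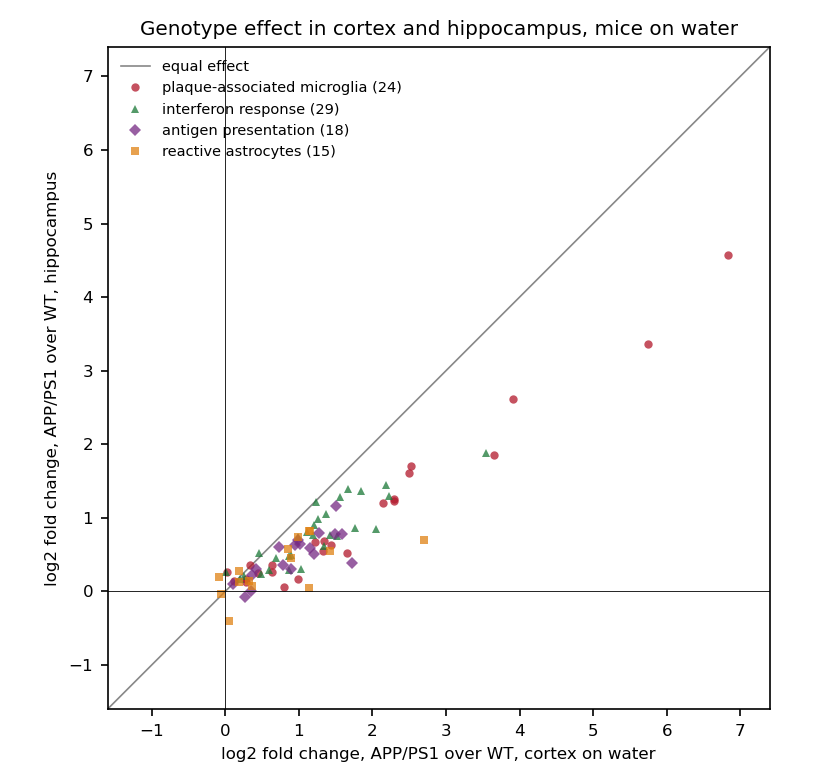
Log2 fold change of APP/PS1 H2O over WT H2O in the cortex (x axis) and the hippocampus (y axis) for the members of 4 lists, with the diagonal of equal effect. Nearly all points past 1 in the cortex lie under the diagonal, and Gfap (2.70 and 0.70) lies far under it. Choosing points by a large cortical value in itself favours this position.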

How the data were processed

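Cortex RNA was hybridised singly (1 colour, Cy3) to Agilent 8x60k mouse arrays. The intensities deposited by the authors are the processed signals of Agilent Feature Extraction 10.7.3.1, with background subtracted and without scaling between arrays, and the series matrix holds the same values. From these intensities log2 values were computed here from the deposited files, minus the 75th percentile of the array over 59305 non-control spots. Spots of 1 probe were averaged and outlier spots left out. The number of arrays limits the precision.

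Probes that cleared background (the scanner software's well-above-background flag) on 4 or more arrays in any of the 4 cortex groups were kept. RefSeq gave gene names for 32994 of 56605 probes and the promoters (GRCm38.p6); some genes, members of the lists among them, are not reported here, though list counts and medians include those that were tested. Groups were compared with limma 3.58.1 (R 4.3.3, data.table, version 1.17.8; lmFit, eBayes). The step was tested on simulated data.

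A gene is its brightest kept probe. Dimmer probes of some named genes that rose had the same direction but were not called. These were Irf7 (1.12), Irf9 (0.68), Ncf1 (0.59), H2-K1 (0.62), Entpd1 (0.58), Lpl (0.76) and Mcm3 (0.54 and 0.23), beside those given in the text. Named are the 10 largest rises and falls without overlap between groups, key list genes, up to 3 called genes per list, and the markers of the study's qPCR and blots with Adora2a. Further genes were named after their values were seen. Members and lists were chosen with earlier results of these data known.

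Alternatives were normexp (offset 50, on median signals), quantile normalization, filters, percentile, fold change, scan day, slide, array weights, intensity trend, other arrays in the fit, the array without a grid, and leaving out single arrays. For the tissues the mouse number in the titles pairs the samples, and the mouse was tried as a block. Labels call the samples separate mice.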

Additional observations from a re-analysis of the deposited data

Results flagged for a closer look

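In groups of 5 or 6 arrays, 15 of 304 sets of values had 1 array far from the others, and chance flags about 1 in 20 sets. Among APP/PS1 H2O mice, mouse 261 stood low for Cst7 (1.46), Cd68 (1.42), C1qc (2.73) and Osmr (-1.74) and for the median of the interferon ligands and receptors (0.106 above the WT mean). All of these 4 genes rose in APP/PS1 cortex, and mouse 261 was still above all WT mice for each of them. Mouse 255 stood low for App (5.54) and for the median of the transgene check (0.732), and mouse 325 low for the choroid plexus gene Ttr (-2.9).

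Among WT H2O mice, mouse 258 stood apart for Cd14 (-2.05), Lamp1 (5.54) and Grin2b (0.884), mouse 56 for Aif1 (0.583), mouse 71 for Col6a4 (-2.3) and mouse 308 for Hcar2 (-6.22) and for the lysosome median (-0.141).

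The genotype effect differed between cortex and hippocampus (limma test of the difference) for 22 of the 121 named genes, as cortex minus hippocampus on the log2 scale. Microglial genes with a higher effect in the cortex were Itgax (2.39), Cst7 (2.26), Ccl6 (1.8), Ccl4 (1.78), Tlr2 (1.17), Tyrobp (1.07), Trem2 (1.03), Cd14 (1.02), Cd68 (0.935), Fcgr1 (0.928), Fcer1g (0.843), Igf1 (0.802), Ctss (0.79), C1qc (0.691), Ctsd (0.662), Fcrls (0.612) and Aif1 (0.592). C4b (2.24), Gfap (2) and Serpina3n (1.09), which astrocytes express, and the interferon-induced Ifi27l2a (1.65) were also in this direction, while Cd6 was in the other (-1.1). With the mouse as a block, Tyrobp, Fcer1g, Igf1, C1qc, Ctsd, Fcrls, Aif1, Cst7, Serpina3n and Ifi27l2a were not called.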

How the results depend on the processing

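Of the 561 calls, 17 changed sign with the array without a found grid kept in and none under the other alternatives. The count was 342 with normexp background correction (329 higher, 13 lower), 73 with the array without a found grid kept in, 1044 with array weights and 311 with a fold change of at least 2. Under the other alternatives the total stayed within 1.5 times. With slide as a block, however, most of the called probes were not among the 561. Leaving out single arrays gave 482 to 618. The share of higher calls moved from 90.6% to 64.2% with slide as a block and to 67.5% with array weights. With the array without a grid kept in, the median of all probes shifted to -0.129, and changes are to be read relative to it. For MSX-3 mice (534 calls) the count was 33 with the arrays without a grid, and single arrays left out gave 451 to 669. With slide as a block it was 3302 (15.3% of them higher), but no slide held readable arrays of both MSX-3 groups. That fit cannot separate genotype from slide, and its count says nothing about the genotype effect. The difference by treatment had 0 calls under every alternative, single arrays left out included, with 168 to 8389 probes at an unadjusted p under 0.05. The difference by tissue (90 calls) gave 58 with quantile normalization, 55 without a filter on dim probes, 3 with the array without a grid kept in, 46 with the mouse as a replicate block, and 54 to 110 without single arrays, at 57 and 56 without cortex arrays of APP/PS1 mice 81 and 323, 54 without that of WT mouse 56 and 58 without the hippocampus array of APP/PS1 mouse 325. Under normexp the falls of Gsta2 (-0.37), Nek11 (-0.24), Col6a4 (-0.58), Rpe65 (-0.51) and 6330549D23Rik (-0.11) were not called, nor the rises of Cd44 (0.45), Csf1 (0.57), Entpd1 (0.53), Mcm3 (0.52), Plau (0.51) and Tgfb1 (0.52). The causes were not tested. The largest rises started from levels near background, and 13 of the 508 higher probes were not well above background on any of the 5 WT arrays.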

Other observations

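Genes outside the lists, named here after their values were seen, rose in APP/PS1 H2O cortex too. The medium-chain fatty acid receptor gene Gpr84 went from -3.56 to -2.77 in WT to between -0.89 and -0.47 (2.28 ± 0.14; limma adjusted p = 4.25e-06). Hcar2, the receptor for beta-hydroxybutyrate and niacin, and Gpr65, a proton sensor, were not well above background on any of the 5 WT arrays. In the main processing they rose at least 4.61-fold and at least 4.53-fold. Under the alternatives the log2 difference of Hcar2 ran from 1.06 to 4.51, so its bound does not hold for all of them. Lgals3, which encodes galectin-3, rose by 2.29 and the apoptosis inhibitor gene Bcl2a1d by 2.40. The inhibitory receptor genes Lag3, Havcr2 (TIM-3) and Pdcd1 (PD-1), best known from T cells, rose by 1.44, 1.27 and 1.68. For Pdcd1 the groups overlapped, with WT mouse 308 (-2.74) above APP/PS1 mice 261, 323 and 325. T cell genes differed in direction. Cd3e (0.15) and Cd4 (0.40) were not called, and Cd6 fell. Cd5 was at -4.49 to -3.54 in WT and at -3.45 to -2.64 in APP/PS1 cortex. Which cells carry these transcripts was not tested. The transcription factor genes Irf8, Runx1 and Bcl3 rose by 1.62, 1.26 and 1.95.

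Tbxas1 (1.57), Alox5 (1.16) and Hpgds (1.08), which encode single enzymes of eicosanoid synthesis, rose, whereas Ptgs2 differed by 0.16 and was not called. No list of this pathway was tallied. The urea transporter gene Slc14a1, known from astrocytes, rose by 1.73 ± 0.13 in the cortex and had a difference of 0.36, not called, in the hippocampus (adjusted p of the difference = 4.5e-05). Arpp21, a gene of neurons, fell from between 2.56 and 2.81 in WT to between 1.80 and 2.12 in APP/PS1 cortex, by 0.73 on the log2 scale (adjusted p = 0.000357), although none of the 16 neuronal markers was called. The difference of Arpp21 in MSX-3 mice, -0.54, passed the adjusted p (0.033) but not the fold change. In the hippocampus it was -0.26 and passed neither (adjusted p = 0.561).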
